A study of Homo sapiens with 16 samples.

Results

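The RUNX genes and CBFB encode core-binding factor, and their RNA was followed here through 72 h of phorbol ester treatment of K562 cells. The members are the 4 listed genes RUNX1, RUNX2, RUNX3 and CBFB, of 35052 genes in all, with the deposited read estimates summed over the transcripts of each gene and also kept per transcript. All 4 passed the filter on low counts, and 43 of their 44 annotated transcripts were in the files. K562 is an established human leukaemia cell line of erythroid and megakaryocytic potential, used here as wild type. The cells received 25 nM phorbol 12-myristate 13-acetate (PMA), an activator of protein kinase C, and were collected before PMA (0 h) and at 0.5 h, 1.5 h, 3 h, 6 h, and then at 24 h, 48 h and 72 h. The medium was renewed at 24 h and 48 h. There were 2 libraries per time point, made from total RNA depleted of ribosomal RNA, 16 in all. The 0 h libraries, which had no PMA, are the control in every comparison with 0 h, so those comparisons share them, and untreated cells of later times are not analysed here.

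RUNX proteins bind DNA through the Runt domain, and CBFB binds no DNA itself but joins each of them and strengthens their grip on it. RUNX1 is needed for the first blood stem cells and for megakaryocyte maturation, RUNX2 is the master factor of bone formation, and RUNX3 acts mainly in T cells, natural killer cells and nerve cells. Each RUNX gene has a distal promoter, P1, and a proximal promoter, P2, whose transcripts code for different first residues. In RUNX1 a short splice form that ends before the transactivation part of the protein is also known.

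Library totals were 27285773 to 54056289 estimated reads, so 3 reads in a library correspond to 0.0574 to 0.113 CPM (counts scaled to a common library size), and RUNX3 lay close to that level. One library stood apart. The mean fragment length was 199 nt in 0 h replicate 2 against 210 to 249 nt in the other 15 libraries. The difference between the 0 h libraries followed the GC content of genes (Pearson r = 0.738 across 9983 genes, which are not independent replicates). Replicate 2 had longer fragments than replicate 1 at every PMA time, with 249 against 213 nt at 0.5 h and 230 against 218 nt at 72 h. At 0 h it had the shorter ones (199 against 217 nt). Values without that library are given beside the tests of the 4 genes, the promoter groups and the main transcripts. Summed CPM of 10 megakaryocyte markers went from 60.7 and 70.5 at 0 h to 5400 and 6210 after 72 h, while GP1BA, GP9 and PF4, which define mature megakaryocytes, stayed at 5 or fewer reads in every library. Summed erythroid markers (8 genes) were at 1704 and 1912 CPM at 0 h and 1107 and 1570 CPM after 72 h. The labels do not say whether the libraries of a time point came from separate cultures, so p-values measure the spread between these libraries.

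In the fit of all 17559 tested genes (edgeR quasi-likelihood test, Benjamini-Hochberg adjusted p under 0.05), 0 of 4 members were called at 0.5 h and 0 of 4 at 1.5 h, where 0.171% and 17.1% of all genes were called. At an unadjusted p under 0.05 the counts were 0 and 1, and DESeq2 called 0 at both times. At 3 h 3 of 4 were called, against 42% of all genes. At 6 h the count was 2 of 4 against 57.2%, at 24 h 3 of 4 against 58.3%, at 48 h 4 of 4 against 54.3%, and at 72 h 4 of 4 against 58.6%. Any change over the 8 time points was called for 4 of 4, as for 82.9% of all genes (adjusted p = 6.91e-08 for RUNX1, 7.66e-11 for RUNX2, 0.00813 for RUNX3 and 1.46e-08 for CBFB). Calls were thus common over all genes from 3 h on, and the members are told apart by their direction and time course. In bulk RNA, fewer cells of a type and less RNA per cell cannot be told apart.

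**Figure D1:**
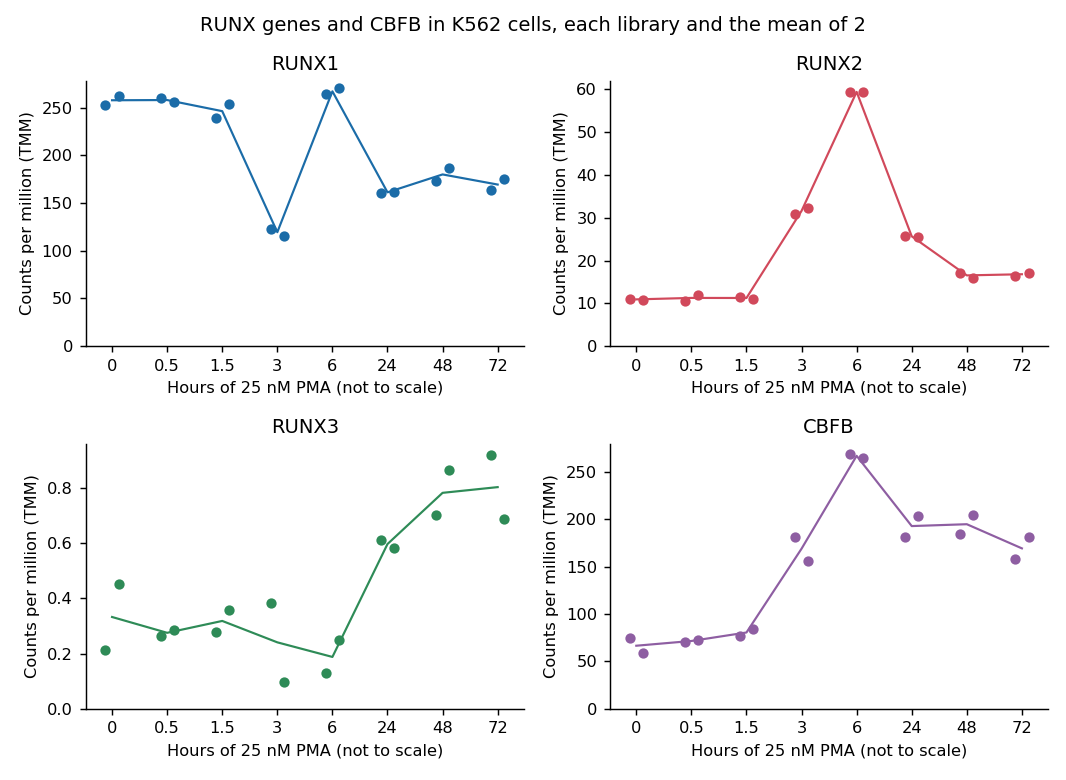
RNA level of RUNX1, RUNX2, RUNX3 and CBFB in CPM scaled with TMM (linear axis from 0) at 8 times of PMA, placed at equal steps. Points are single libraries and lines join the mean of 2. RUNX1 dips at 3 h and at 6 h lies near its 0 h level (log2 fold change -0.31 with total-count scaling), RUNX2 and CBFB peak at 6 h, and RUNX3 stays under 1 CPM.

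RUNX1 (ENSG00000159216, GRCh38 chromosome 21, 34787801 to 36004667, minus strand) fell, rose again and fell a further time, its 6 h level against 0 h depending on the scaling (below). Its level was 253 and 263 CPM at 0 h, 260 and 256 CPM after 0.5 h, 239 and 254 CPM after 1.5 h, 123.1 and 116 CPM after 3 h, 264 and 270 CPM after 6 h, 161 and 162 CPM after 24 h, 173 and 187 CPM after 48 h, and 164 and 175 CPM after 72 h. Both 3 h libraries lay below all others, and both 6 h libraries lay just above the 0 h libraries. At 3 h the log2 fold change against 0 h was -1.11 (SE 0.0808, edgeR adjusted p = 1.32e-07), a 2.16-fold fall. Between 3 and 6 h the level rose 2.24-fold (log2 fold change 1.16, SE 0.0809, edgeR adjusted p = 1.13e-07). Between 6 and 24 h it fell by 0.73 on the log2 scale (SE 0.0801, edgeR adjusted p = 4.73e-06). In those steps 41.2% and 56.6% of all genes were called.

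At 6 h RUNX1 differed from 0 h by 0.05 on the log2 scale (SE 0.0796, edgeR adjusted p = 0.617). That comparison depends on the scaling: with total counts in place of TMM the 6 h value was -0.31 (edgeR adjusted p = 0.00188), a scaling under which the median of all genes moved to -0.353. From 24 h on RUNX1 was lower than at 0 h, with log2 fold changes of -0.68 after 24 h, -0.52 after 48 h and -0.61 after 72 h (SE 0.08, 0.0799 and 0.08, edgeR adjusted p = 7e-06, 8.6e-05 and 1.81e-05). Without 0 h replicate 2 the values at 3 and 72 h were -1.09 and -0.58.

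Counts per gene weigh a long transcript more than a short one, and the level per length, summed over all RUNX1 transcripts, declined earlier. In TPM, a measure per length where each transcript is divided by its effective length, RUNX1 was at 138 and 150 TPM at 0 h and already at 92 and 87.2 TPM after 1.5 h. With counts rebuilt from TPM the 1.5 h change was -0.58 on the log2 scale (SE 0.117, edgeR adjusted p = 0.00539), where summed reads gave -0.07 (adjusted p = 0.617). The sum includes noncoding transcripts, and not every transcript was lower at 1.5 h. The long coding RUNX1-202 was at 30.5 and 21.4 TPM at 0 h and 35.3 and 34.9 TPM after 1.5 h. RUNX1-203, a short coding form, went from 31.6 and 39.7 TPM to 17.9 and 15.8 TPM. The noncoding RUNX1-213 went from 15.8 and 16.6 TPM to 6.17 and 5.08 TPM. RUNX1-210, also noncoding, went from 14.2 and 7.75 TPM to 2.7 and 4.56 TPM. The main RUNX1 transcripts, which differ in length, are described next.

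The annotation lists 17 RUNX1 transcripts, and 3 of them held at least 5% of the gene's reads each. RUNX1-202 carried 62.9% of the reads, starts at P2, is 7274 nt long and codes for the full-length protein often called RUNX1b (1359 coding bases). RUNX1-203 carried 18.8%, also starts at P2, and has 750 coding bases, of which 724 are shared with RUNX1-202. It is the short form known as RUNX1a, and 418 of its 2720 bases (chromosome 21, 34821279 to 34821696) lie within an intron of RUNX1-202. RUNX1-213 carried 5.03%, codes for no protein, and has 1598 of its 1790 bases within introns of RUNX1-202. Splitting reads between transcripts that share sequence is itself an estimate, so these values are less certain than those of the whole gene. The fit per transcript, over 85184 transcripts, and its repeats without each library were added after the data had been seen. Many calls of single transcripts were lost without 1 library, and these are named with each.

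RUNX1-213, made mostly of intron sequence, had lower libraries at 1.5 h than at 0 h. It was at 15.8 and 17.4 CPM at 0 h, 16.2 and 14.9 CPM after 0.5 h, 6.64 and 6.03 CPM after 1.5 h, 6.02 and 8.36 CPM after 3 h, and 17.3 and 17.8 CPM after 6 h. Its fall at 1.5 h (log2 fold change -1.39, SE 0.226, edgeR adjusted p = 0.0149, with 1.66% of transcripts called) was called, but not without 0 h replicate 2 (-1.28, adjusted p = 0.0934) or without either 1.5 h library (0.0937 and 0.133). Tested against the rest of the gene with limma voom diffSplice, it was not called at 1.5 h (-1.14, adjusted p = 0.229). Both 6 h libraries were back within or just above the 0 h values. At 24, 48 and 72 h RUNX1-213 lay between 4.9 and 8.58 CPM, below both 0 h libraries, with log2 fold changes of -1.47, -1.12 and -1.14 (edgeR adjusted p = 0.00166, 0.00812 and 0.00663, with 15.5%, 14.2% and 16.7% of transcripts called). The 24 h call was kept whichever library was left out. The 48 h call was lost without 0 h replicate 2 or 48 h replicate 2 (0.0569 and 0.0764), and the 72 h call without 72 h replicate 1 (0.0585).

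The short form RUNX1-203 followed a similar course. Its libraries held 50.3 and 66 CPM at 0 h, 30.6 and 29.9 CPM after 1.5 h, 28.6 and 25.4 CPM after 3 h, 78.8 and 77.4 CPM after 6 h, 25.9 and 27.2 CPM after 24 h, and 16.6 and 29.2 CPM after 72 h. All libraries at 1.5 h, 3 h and from 24 h on lay below the 0 h libraries, and both 6 h libraries lay above them. At 1.5 h the fold change missed the threshold (log2 -0.94, SE 0.222, edgeR adjusted p = 0.0748), at 3 h it passed (log2 -1.11, SE 0.222, adjusted p = 0.0114, with 10% of transcripts called), and at 6 h it did not (log2 0.43, SE 0.22, adjusted p = 0.231, with 17.7% called). RUNX1-203 was lower again at 24, 48 and 72 h, by -1.13, -0.96 and -1.35 on the log2 scale (edgeR adjusted p = 0.00687, 0.0165 and 0.00252). The 72 h call was kept whichever library was left out, and without 0 h replicate 2 it was -1.10 (adjusted p = 0.0283). Without 0 h replicate 2 the calls at 3, 24 and 48 h were lost (0.108, 0.0741 and 0.149), as they were without either library of the treated time (0.0544 and 0.104 for 3 h, 0.0644 and 0.0601 for 24 h, 0.093 and 0.116 for 48 h).

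The full-length form RUNX1-202 was not called against 0 h at any time from 6 h on. Against the rest of its gene, limma voom diffSplice called RUNX1-202 higher at 1.5, 24, 48 and 72 h. The log2 differences were 1.34, 1.54, 1.29 and 1.33 (limma voom diffSplice adjusted p = 0.00486, 0.000413, 0.005 and 0.00303). That test called 1.6%, 6.33%, 4.83% and 6.08% of its transcripts at these times, and was not repeated without each library. RUNX1-202 was not called by it at 0.5, 3 or 6 h (adjusted p = 0.426, 0.0673 and 0.492). It was at 137 and 99.7 CPM at 0 h, 170 and 188 CPM after 1.5 h, 81.1 and 70.1 CPM after 3 h, 129 and 128 CPM after 6 h, and 141 and 115 CPM after 72 h. Against 0 h its 3 h change alone passed the test (log2 fold change -0.65, SE 0.153, edgeR adjusted p = 0.0249), while 72 h gave 0.11 (SE 0.152, adjusted p = 0.683). The 3 h call was lost without 0 h replicate 1 or 3 h replicate 2 (0.124 and 0.147), and without 0 h replicate 1 the 1.5 h value of 0.83 was called (0.0181). Reads of RUNX1-203 per read of RUNX1-202 were 0.367 and 0.662 at 0 h, 0.18 and 0.159 after 1.5 h, 0.609 and 0.606 after 6 h, and 0.118 and 0.254 after 72 h. The 0 h libraries differed widely in this ratio, and those at 1.5 h and 6 h were close to each other. Against the rest of its gene, RUNX1-203 was called at no time (limma voom diffSplice adjusted p from 0.164 to 0.984).

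**Figure D2:**
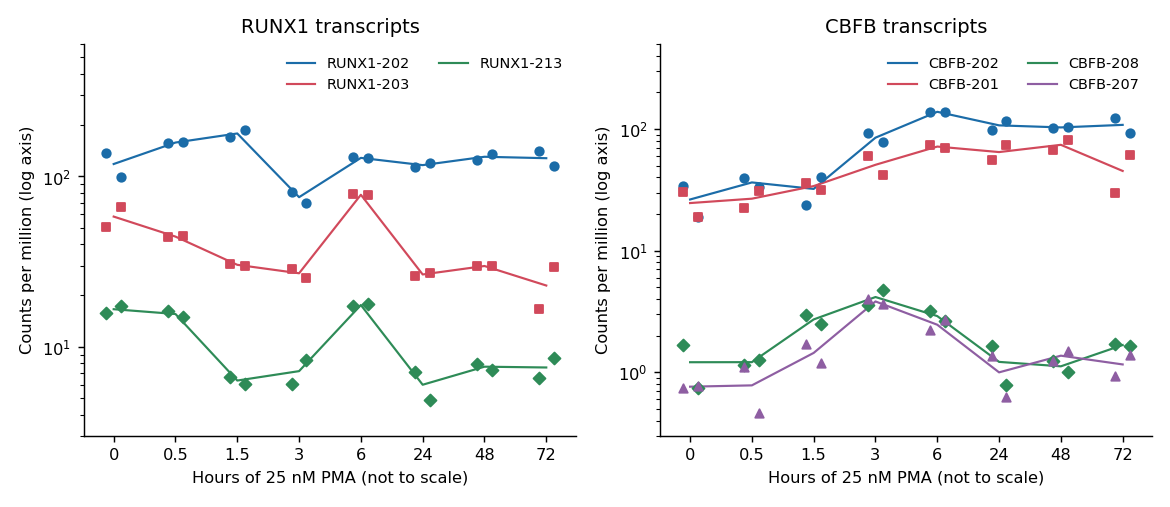
CPM (log axis) of 3 RUNX1 transcripts (left) and 4 CBFB transcripts (right) at each time of PMA. Points are single libraries and lines join the mean of 2. RUNX1-213 and RUNX1-203 are low at 1.5 and 3 h, high at 6 h and low after that, while RUNX1-202 is low at 3 h, and CBFB-207 and CBFB-208 are highest at 3 h.

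Promoter use was read from the annotated 5′ ends, with transcripts joined where their 5′ ends lay within 500 bases of each other. The starts of the coding sequences are shown because P1 and P2 forms differ there, and the 3 genes share the pattern. Each line gives the first 60 coding bases of a GENCODE transcript (GRCh38), 5′ to 3′, with the start codon in capitals.
RUNX1 P1 (RUNX1-201): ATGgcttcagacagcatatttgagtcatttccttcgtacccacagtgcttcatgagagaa
RUNX2 P1 (RUNX2-202): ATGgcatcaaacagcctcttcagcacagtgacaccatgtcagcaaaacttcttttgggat
RUNX3 P1 (RUNX3-203): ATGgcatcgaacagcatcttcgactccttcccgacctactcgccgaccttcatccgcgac
RUNX1 P2 (RUNX1-202): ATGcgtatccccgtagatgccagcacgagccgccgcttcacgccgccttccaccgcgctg
RUNX2 P2 (RUNX2-201): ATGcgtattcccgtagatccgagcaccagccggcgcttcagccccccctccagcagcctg
RUNX3 P2 (RUNX3-201): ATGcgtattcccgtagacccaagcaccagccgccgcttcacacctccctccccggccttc

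Between genes the P2 starts were identical at 47 of 60 bases in each pair, and the P1 starts at 33 to 40 of 60. Within a gene the P1 and P2 starts were identical at 15 bases in RUNX1, 16 in RUNX2 and 22 in RUNX3. In each P1 form the first coding exon ended after 58 of these bases.

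The P1 regions also shared a run of 18 bases with a pair of RUNX letters in tandem, the longest run common to any 2 of the promoter windows compared. It is shown with the letters ACCACA, the reverse complement of the RUNX motif TGTGGT, in capitals.
Shared run of RUNX1 P1, RUNX2 P1 and RUNX3 P1: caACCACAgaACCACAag
In RUNX2 it lies at chr6:45328344-45328361 (plus strand), starting 14 bases after the RefSeq start, and in RUNX3 at chr1:24965126-24965143 (minus strand), starting 133 bases before it. In RUNX1 it lies at chr21:35049265-35049282 (minus strand), within the first exon of the P1 transcripts RUNX1-201, RUNX1-207, RUNX1-208 and RUNX1-216. Of the 35116 promoter windows of 300 bases in the RefSeq table (GRCh38.p14, 250 bases before to 50 after a start), 2 held the run, those of RUNX2 P1 and RUNX3 P1. The table matched 5 windows of 3 members.

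Motifs were searched on both strands in those 5 windows. The RUNX letters TGTGGT were found 4 times in the RUNX2 P1 window and 2 times in the RUNX3 P1 window, and 13.1% of all windows held them at least once. The AP-1 letters TGANTCA were found once, in RUNX2 P1, against 7.71% of all windows. The GATA letters AGATAA (10.3% of windows), the ETS letters CCGGAAGT (4.14%) and the EGR letters GCGTGGGCG (0.795%) were in none of the 5, and the RUNX1 P2, RUNX2 P2 and RUNX3 P2 windows held none of the 5 motifs. The stretch of the RUNX2 P1 window that lies before every annotated exon (chr6:45328080-45328156, plus strand) is shown because this promoter had the largest called rise among the P1 and P2 groups of the members, with the AP-1 and RUNX letters in capitals. A match is a description of the letters, not a binding site.
RUNX2 P1: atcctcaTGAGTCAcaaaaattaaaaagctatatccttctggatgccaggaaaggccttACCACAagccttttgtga

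RUNX1 P1 (5 transcripts with 5′ ends from 35049270 to 35049344, 9.58% of the gene's reads) fell at 3 h, and its later libraries stayed below those of 0 h. Its libraries held 1105 and 1606 reads at 0 h, 1197 and 989 after 0.5 h, 974 and 957 after 1.5 h, 165 and 246 after 3 h, 193 and 513 after 6 h, 205 and 569 after 24 h, 337 and 540 after 48 h, and 394 and 621 after 72 h. No library from 3 h on reached the lower 0 h library. In the fit of 43688 promoter groups P1 fell by 2.73 on the log2 scale at 3 h (SE 0.473, edgeR adjusted p = 0.00196, with 20.9% of groups called) and was at -1.76 after 6 h (SE 0.455, adjusted p = 0.012, with 31.7% called). At 24, 48 and 72 h the values were -2.12, -1.66 and -1.39 (edgeR adjusted p = 0.00492, 0.0184 and 0.0357, with 30.3%, 28.1% and 31.7% of groups called).

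RUNX1 P2 (5′ end at 34888690, RUNX1-202 and RUNX1-203, 81.8% of the reads) fell at 3 h and was less low at late times. It was at 188 and 173 CPM at 0 h, 109 and 95.4 CPM after 3 h, 208 and 207 CPM after 6 h, and 152 and 143 CPM after 72 h. Its fall at 3 h was -0.82 on the log2 scale (SE 0.0928, edgeR adjusted p = 0.000112), the 6 h value of 0.20 was not called (adjusted p = 0.126), and the 72 h value was -0.29 (SE 0.0922, adjusted p = 0.0327), a call that was lost without either 0 h library (adjusted p = 0.162 and 0.0519) or without 72 h replicate 2 (0.143). P1 held 13.4% and 19.7% of the RUNX1 reads at 0 h, 3.67% and 6.92% after 3 h, 3.12% and 6.72% after 6 h, and 6.7% and 11.1% after 72 h. Its share of the RUNX1 TPM was 16.9% and 29.4% at 0 h and 7.37% and 9.79% after 3 h. By TPM it was 5.57% and 16.5% after 24 h and 8.68% and 16.6% after 72 h, so replicate 2 came close to the lower 0 h library.

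The difference between the 9 RUNX1 groups of 5′ ends was tested with edgeR diffSpliceDGE over 9581 genes with more than 1 group, and with limma voom diffSplice, which was added after the data had been seen. Both called RUNX1 from 1.5 h to 72 h, with adjusted p = 0.00988 and 0.0118 after 1.5 h, 0.00035 and 0.000562 after 3 h, 1.4e-07 and 7.48e-07 after 6 h, and 0.000219 and 0.00758 after 72 h. The shares of genes called were 7.29% and 5.95% after 1.5 h, 15.3% and 14% after 3 h, 17.1% and 15.1% after 6 h, 21.9% and 24.7% after 24 h, 17.1% and 18.7% after 48 h, and 21.1% and 22.1% after 72 h. Without 0 h replicate 2 the edgeR calls at 6, 24 and 48 h were kept (adjusted p = 0.00126, 0.0013 and 0.0203) and those at 1.5, 3 and 72 h were lost (0.16, 0.0955 and 0.0768). The 1.5 h call was also lost without either 1.5 h library (0.141 and 0.153), and the 3 h call without 3 h replicate 1 (0.0612). These calls cover all 9 groups and need not come from P1 against P2. The P1 coefficient against the gene as a whole was -0.55 on the log2 scale at 1.5 h, which neither test called (edgeR adjusted p = 0.893, voom 0.846). It was -1.66 after 3 h, -1.74 after 6 h, -1.51 after 24 h and -1.23 after 48 h, called by both (edgeR adjusted p = 0.00028, 6.89e-05, 0.000875 and 0.0143, voom 2.49e-05, 3.15e-07, 0.000263 and 0.00238). After 72 h it was -0.89, called by voom alone (0.0428, edgeR 0.128). For P2 the coefficient at 1.5 h was 0.21, called by voom (adjusted p = 0.00128). Voom also called P2 at each later time (adjusted p from 4.05e-06 to 0.00622), while edgeR called it at no time.

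The P1 values rest in part on the library of 0 h replicate 2 and on a single transcript. Without 0 h replicate 2, P1 stayed called at 3 h (log2 -2.36, edgeR adjusted p = 0.0132) and 24 h (log2 -1.81, adjusted p = 0.0293) but not at 6, 48 or 72 h (adjusted p = 0.0828, 0.105 and 0.181). RUNX1-216, a P1 transcript annotated as a target of nonsense-mediated decay, held 378 and 1217 reads in the 0 h libraries and 17.7 and 309 after 72 h, and more reads in replicate 2 than in replicate 1 at all 8 times. With RUNX1-216 left out, P1 held 727 and 389 reads at 0 h, 55.1 and 124 after 3 h, 111 and 119 after 6 h, and 377 and 312 after 72 h, and the log2 fold change was -2.63 after 3 h (adjusted p = 0.000733), -2.03 after 6 h (0.00173), -1.93 after 24 h (0.00266), -0.96 after 48 h (0.0748) and -0.68 after 72 h (0.187). P1 was thus called at 3 and 24 h under both changes, and at 48 and 72 h under neither. The 24 h call was lost without 24 h replicate 1 (edgeR adjusted p = 0.0527), the 6 h call without 6 h replicate 1 (0.0953), the 48 h call without 48 h replicate 1 (0.144) and the 72 h call without 72 h replicate 1 (0.193).

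**Figure D3:**
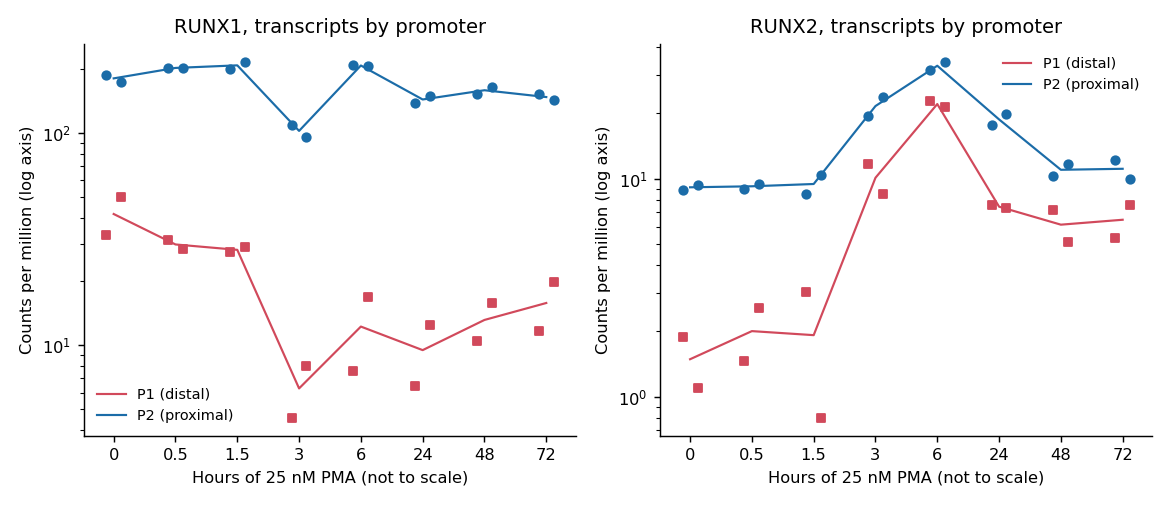
CPM (log axis) of the P1 and P2 transcripts of RUNX1 (left) and RUNX2 (right) at each time of PMA. Points are single libraries and lines join the mean of 2. RUNX1 P1 falls at 3 h and stays under its 0 h libraries, while RUNX2 P1 rises from 1.88 and 1.09 CPM at 0 h to 22.8 and 21.2 CPM after 6 h.

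A further RUNX1 transcript was singled out after its values were seen. RUNX1-217, a noncoding RNA of 3622 nt at chromosome 21, 35435661 to 35465329, begins far upstream of P1 on the same strand. It held 0 to 4 reads in each library up to 3 h and 12 to 29 reads in each library from 6 h on. The 0 h libraries held 1 and 0 reads. As it was chosen for this pattern and passed the filter through the later libraries, no test is given.

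RUNX2 (ENSG00000124813, GRCh38 chromosome 6, 45328157 to 45664349, plus strand) rose to a peak at 6 h and kept a smaller rise. Its level was 11 and 10.8 CPM at 0 h, 10.6 and 12 CPM after 0.5 h, 11.5 and 11 CPM after 1.5 h, 30.8 and 32.4 CPM after 3 h, 59.3 and 59.5 CPM after 6 h, 25.8 and 25.6 CPM after 24 h, 17.1 and 16 CPM after 48 h, and 16.5 and 17.1 CPM after 72 h. The replicates were close at each time, and no library from 3 h on overlapped the 0 h libraries. The rise was 2.89-fold at 3 h (log2 1.53, SE 0.0958, edgeR adjusted p = 2.93e-08) and 5.44-fold at 6 h (log2 2.44, SE 0.0975, edgeR adjusted p = 1.19e-10). At 24 h it was 2.35-fold, at 48 h 1.51-fold and at 72 h 1.54-fold (edgeR adjusted p = 1e-07, 0.000123 and 7.68e-05). Without 0 h replicate 2 the log2 values were 1.52 after 3 h, 2.43 after 6 h and 0.61 after 72 h (edgeR adjusted p = 9.91e-07, 6.47e-09 and 0.000841). The fall from 6 to 24 h was -1.21 on the log2 scale (SE 0.0921, edgeR adjusted p = 1.55e-07). Summed CPM of 6 osteoblast markers went from 8.75 and 11.5 at 0 h to 216 and 235 after 72 h. Most of that sum was COL1A1, a collagen chain that other cells make too (3.1 and 3.83 CPM at 0 h, 195.8 and 218.4 CPM after 72 h), while SP7 and IBSP, which define osteoblasts, held at most 9 and 1 reads in any library. The part of these markers in the RUNX2 level was not tested. Between 48 and 72 h the RUNX2 difference was 0.02 (SE 0.094, adjusted p = 0.976, with 1.47% of all genes called).

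Both RUNX2 promoter groups rose, with a larger fitted rise for P1. P1 (5′ ends from 45328157 to 45328727, 31.2% of the reads) held 62.5 and 35.2 reads at 0 h, 55.7 and 88.2 after 0.5 h, 108 and 26.4 after 1.5 h, 424 and 261 after 3 h, 582 and 642 after 6 h, and 180 and 237 after 72 h. Every library from 3 h on lay above those before it. The log2 fold change of P1 was 2.77 after 3 h (SE 0.533, edgeR adjusted p = 0.00368), 3.89 after 6 h (SE 0.555, adjusted p = 0.000259) and 2.13 after 72 h (SE 0.525, adjusted p = 0.00973). P2 (5′ ends from 45422036 to 45422577, 68.8% of the reads) went from 8.91 and 9.35 CPM at 0 h to 31.6 and 34.4 CPM after 6 h and 12.2 and 9.99 CPM after 72 h. Its log2 fold change was 1.24 after 3 h, 1.85 after 6 h and 1.03 after 24 h (edgeR adjusted p = 0.000286, 7.26e-06 and 0.000561), and 0.27 and 0.28 at 48 and 72 h, which were not called (adjusted p = 0.252 and 0.209).

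P1 held 17.4% and 10.5% of the RUNX2 reads at 0 h, 41.9% and 38.2% after 6 h, and 30.4% and 43.3% after 72 h. The difference between the promoters was called at 3 h (adjusted p = 0.0464 by edgeR and 0.032 by voom), 6 h (0.00943 and 0.00414), 48 h (0.02 and 0.0152) and 72 h (0.0147 and 0.0105), and at 24 h by voom alone (0.0714 and 0.0484). None of these edgeR calls was kept when 5′ ends were joined within 100 bases (adjusted p from 0.149 after 6 h to 0.45 after 3 h) or without 0 h replicate 2 (0.139 after 6 h to 0.303 after 3 h). The 3 h call was also lost without 0 h replicate 1 or either 3 h library (0.0513, 0.251 and 0.064), and the calls at 6, 48 and 72 h without 6 h replicate 1, 48 h replicate 1 and 72 h replicate 2 (0.0615, 0.156 and 0.112). P1 itself stayed called at 3 and 6 h without 0 h replicate 2 (log2 2.49 and 3.61, adjusted p = 0.0372 and 0.00444) but not at 24, 48 and 72 h (0.0572, 0.0955 and 0.0779), and its 48 h call was lost without 48 h replicate 1 (0.064).

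The RUNX2 transcripts with at least 5% of its reads were RUNX2-201 (P2, 42.2%), RUNX2-202 (P1, 29.8%) and RUNX2-212 (P2, 23.3%). RUNX2-201 and RUNX2-202 code for long forms of the protein with the P2 and P1 starts shown above. The 0 h libraries held 62.5 and 0 reads of RUNX2-202. In 0 h replicate 2, 26.3 reads were assigned to RUNX2-213, a P1 transcript with 0 reads in every other library. The size of a RUNX2-202 change against 0 h thus rests in part on this split. RUNX2-201 rose at 6 h (log2 2.32, SE 0.443, edgeR adjusted p = 0.00484), as did RUNX2-202 (log2 4.54, SE 1.38, adjusted p = 0.0475), a call lost without either 6 h library (0.106 and 0.102), while RUNX2-212 reached 1.33 (SE 0.555, adjusted p = 0.141). SUPT3H lies on the opposite strand across RUNX2 P1 (365 to 700 reads per library), and reads from its exons cannot be told apart by strand where none is stated.

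RUNX3 (ENSG00000020633, GRCh38 chromosome 1, 24899511 to 24965121, minus strand) was nearly silent. Its libraries held 7 and 14 reads at 0 h, 10 and 10 after 0.5 h, 10 and 12 after 1.5 h, 14 and 3 after 3 h, 3 and 7 after 6 h, 19 and 28 after 24 h, 23 and 31 after 48 h, and 32.7 and 22 after 72 h. In CPM the level went from 0.215 and 0.451 at 0 h to 0.92 and 0.687 after 72 h. The log2 fold change was 1.24 after 48 h (SE 0.483, edgeR adjusted p = 0.043) and 1.27 after 72 h (SE 0.483, adjusted p = 0.0348), and 0.84 after 24 h (adjusted p = 0.154). Both later calls were lost with DESeq2 (adjusted p = 0.111 and 0.0908), with total-count scaling (0.0638 and 0.0526) and without 0 h replicate 1 (0.254 and 0.221), and without 0 h replicate 2 the values were 1.85 and 1.89 (adjusted p = 0.0279 and 0.0235). The 48 h call was also lost without either 48 h library (0.072 and 0.173), and the 72 h call without 72 h replicate 1 (0.165). RUNX3-201 (P2) and RUNX3-203 (P1) held at least 5% of the reads, and all reads before 3 h were assigned to P2 apart from at most 0.1 read in a library. Among 6 T cell markers CD3E, CD2 and CD5 held at most 11 reads in any library, and the summed CPM of the list was 12.4 and 15.6 at 0 h and 22.6 and 24.9 after 72 h. In that list CD3D rose at 72 h (log2 1.12, edgeR adjusted p = 3.4e-05), and TRAC went from 0 and 0.0322 CPM to 1.14 and 1.22 CPM. The summed CPM of 4 natural killer cell markers was 35.23 and 35.69 at 0 h and 24.04 and 31.05 after 72 h. Most of that sum was KLRD1, with 823 to 1383 reads per library. In that list NKG7 rose at 72 h (log2 2.12, edgeR adjusted p = 0.0117), from 0.0614 and 0.29 CPM to 0.808 and 0.718 CPM, and GNLY held at most 4 reads in any library. The part of these markers in the RUNX3 reads was not tested.

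CBFB (ENSG00000067955, GRCh38 chromosome 16, 67029116 to 67101058, plus strand), the shared partner, rose 4.01-fold by 6 h and was still higher than at 0 h at 72 h. Its level was 74.7 and 58.6 CPM at 0 h, 70.6 and 72.7 CPM after 0.5 h, 76.7 and 84.5 CPM after 1.5 h, 182 and 156 CPM after 3 h, 269 and 265 CPM after 6 h, 182 and 204 CPM after 24 h, 185 and 205 CPM after 48 h, and 158 and 181 CPM after 72 h. Every library from 3 h on was above every earlier one. The log2 fold change against 0 h was 1.34 after 3 h (SE 0.126, edgeR adjusted p = 1.53e-06), 2.00 after 6 h (SE 0.128, adjusted p = 1.28e-08) and 1.35 after 72 h (SE 0.126, adjusted p = 6.18e-07). At 1.5 h the value of 0.27 was not called (SE 0.125, edgeR adjusted p = 0.146), though without 0 h replicate 1 it was 0.46 (adjusted p = 0.0201). From 6 to 24 h CBFB fell by 0.47 on the log2 scale (SE 0.123, edgeR adjusted p = 0.00558). Without 0 h replicate 2 the rise was 1.18 after 3 h, 1.84 after 6 h and 1.18 after 72 h.

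Most CBFB reads came from 2 long transcripts. CBFB-202 carried 52.2% and CBFB-201 32.5%, and their coding sequences share 515 bases, with 31 found in CBFB-201 alone and 46 in CBFB-202 alone. CBFB-203 and CBFB-204 held 5.75% and 5.87%. The main group of 5′ ends held 97.1% of the reads. The difference between the 4 CBFB groups was called at 24 h (adjusted p = 0.0214 by edgeR and 0.0052 by voom, with 21.9% and 24.7% of genes called). At 48 h it was also called (0.00455 and 0.00736, with 17.1% and 18.7% of genes called), and at no other time. The test between the CBFB groups was not repeated without each library. CBFB-202 rose at 3, 6 and 72 h, by 1.69, 2.40 and 2.04 on the log2 scale (edgeR adjusted p = 0.00633, 0.000466 and 0.00137). These 3 calls were kept whichever library was left out. CBFB-201 rose by 1.54 after 6 h (adjusted p = 0.0129), a call lost without 0 h replicate 2 or 6 h replicate 1 (0.0978 and 0.0512), while 0.88 after 72 h was not called (adjusted p = 0.122). Its 72 h libraries lay far apart, at 29.5 and 60.8 CPM.

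A pair of noncoding CBFB transcripts had higher libraries at 3 h than at 6 h or at 0 h. They hold under 5% of the reads and were chosen for this pattern after their values were seen, so their rise is described with no test, and the difference between 3 and 6 h was not called (edgeR adjusted p = 0.533 and 0.59). CBFB-207 (128 of its 484 bases in introns of the long forms) was at 0.746 and 0.774 CPM at 0 h, 1.7 and 1.19 CPM after 1.5 h, 4.03 and 3.61 CPM after 3 h, 2.23 and 2.68 CPM after 6 h, and 0.924 and 1.39 CPM after 72 h. CBFB-208 (376 of its 610 bases in those introns) was at 1.67 and 0.744 CPM at 0 h, 3.55 and 4.75 CPM after 3 h, and 1.69 and 1.65 CPM after 72 h. CBFB-209 (232 of its 914 bases in those introns) did not share this order, with 0.448 and 0.327 CPM at 0 h, 1.03 and 2.28 CPM after 3 h, and 1.53 and 2.03 CPM after 6 h.

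Set against each other per length, the order of the 4 genes changed between 1.5 and 3 h. RUNX1 was highest in TPM, followed by CBFB, RUNX2 and RUNX3, in the 6 libraries up to 1.5 h, and CBFB was highest, followed by RUNX1, RUNX2 and RUNX3, in the 10 libraries from 3 h on. At 1.5 h the neighbours RUNX1 (92 and 87.2 TPM) and CBFB (79.4 and 72.1 TPM) were close. CBFB was at 61.1 and 78.2 TPM at 0 h and 180 and 175 TPM after 6 h, and RUNX2 was at 3.19 and 3.88 TPM and 14.3 and 13.6 TPM. The ratio of CBFB to the summed TPM of the RUNX genes was 0.47 ± 0.0537 (SD, n = 2) at 0 h, 0.816 ± 0.0247 after 1.5 h, 2.48 ± 0.233 after 3 h, 1.37 ± 0.00707 after 6 h, 2.12 ± 0.106 after 24 h and 1.8 ± 0.141 after 72 h. RUNX2 made up 2.39% of the summed RUNX TPM at 0 h, 14.2% after 3 h and 6.79% after 72 h. These levels are a description with no test. Short and noncoding transcripts weigh in these sums. In 0 h replicate 2, CBFB-203 and CBFB-205 (584 and 533 nt) held 28.2 and 20.6 of 78.2 CBFB TPM. In 0 h replicate 1, the noncoding RUNX1-213, RUNX1-210 and RUNX1-215 held 15.8, 14.2 and 9.97 of 138 RUNX1 TPM. By mean CPM RUNX1 and CBFB were level at 6 h (267.3 and 267.2) and 72 h (169.5 and 169.5), while CBFB was higher at 3, 24 and 48 h.

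**Figure D4:**
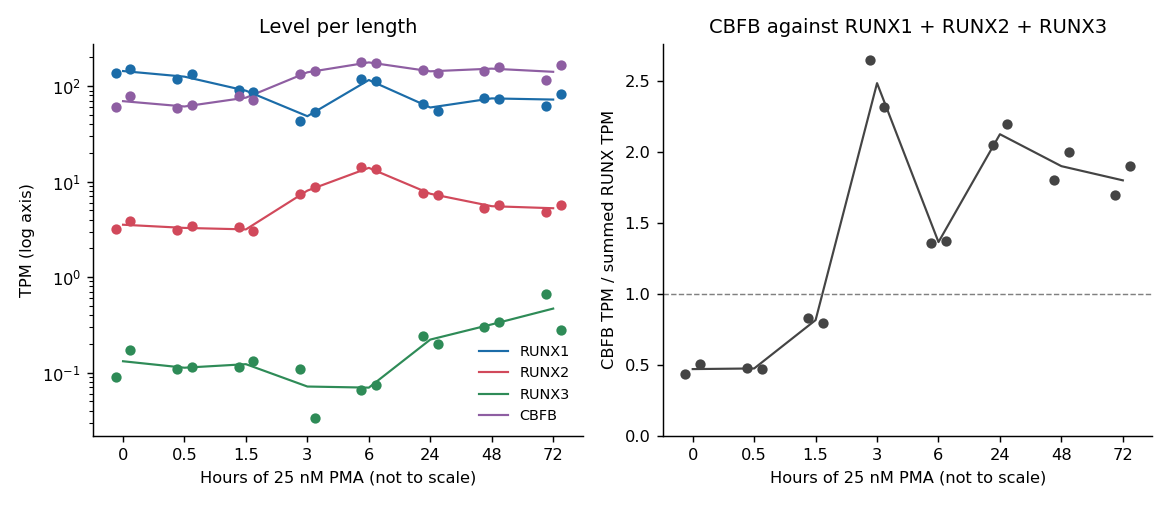
Left, TPM (log axis) of the 4 genes; right, the ratio of CBFB TPM to the summed TPM of RUNX1, RUNX2 and RUNX3 (linear axis, dashed line at 1). Points are single libraries and lines join the mean of 2. The ratio lies under 1 in all libraries up to 1.5 h and above 1 in all from 3 h on.

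Across the 16 libraries, log2 CPM of RUNX2 and CBFB had a Pearson r of 0.841, and the other pairs of members lay between -0.46 and 0.174. The protein-coding genes most like RUNX1 were SGMS1 (r = 0.935), CYTH3, TMEM131L, SRGAP2B and PLEKHF1. RUNX2 was most like ARHGEF7 (r = 0.981), EPN2, OSBPL2, CLDND1 and IL1RL1, and CBFB was most like USP12 (r = 0.989), PTPN21, ZFP36L1, PRDM2 and IER5. RUNX3, at its low counts, was most like ABL1 (r = 0.918), SNX19, DCAF7, DOLK and SORT1. All libraries share the time course, so these values describe likeness in time only.

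Among 12 factors listed as complex partners of RUNX1 in blood progenitors and megakaryocytes, 8 were lower at 6 h, 3 higher and 1 not called. Over all genes 29.4% were lower and 27.8% higher at 6 h, and the median log2 fold change was -1.87 for the list and 0.00115 for all genes. At 72 h 6 were higher, 3 lower and 3 not called, with a median of 0.184, where 31.7% of all genes were higher and 26.9% lower and the median was -0.0319. GATA1, the main erythroid and megakaryocytic factor, had 107 and 155 CPM at 0 h, 9.31 and 9.98 CPM after 6 h, and 129 and 137 CPM after 72 h, so its groups at 0 and 72 h overlapped. GATA2, a progenitor factor and the member with the highest mean level, went from 113 and 154 CPM to 532 and 599 CPM after 6 h (log2 2.08, SE 0.162, edgeR adjusted p = 9.08e-08). ERG, an ETS factor of stem cells and megakaryocytes, had the largest change at both times. It held 2 reads over both 0 h libraries and 397 over both 6 h libraries, a ratio of 245 with a 95% counting interval from 67.2 to 2030. At 72 h ERG held 1730 reads, a ratio of 811 (224 to 6700), where these exact intervals cover counting error only.

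**Figure D5:**
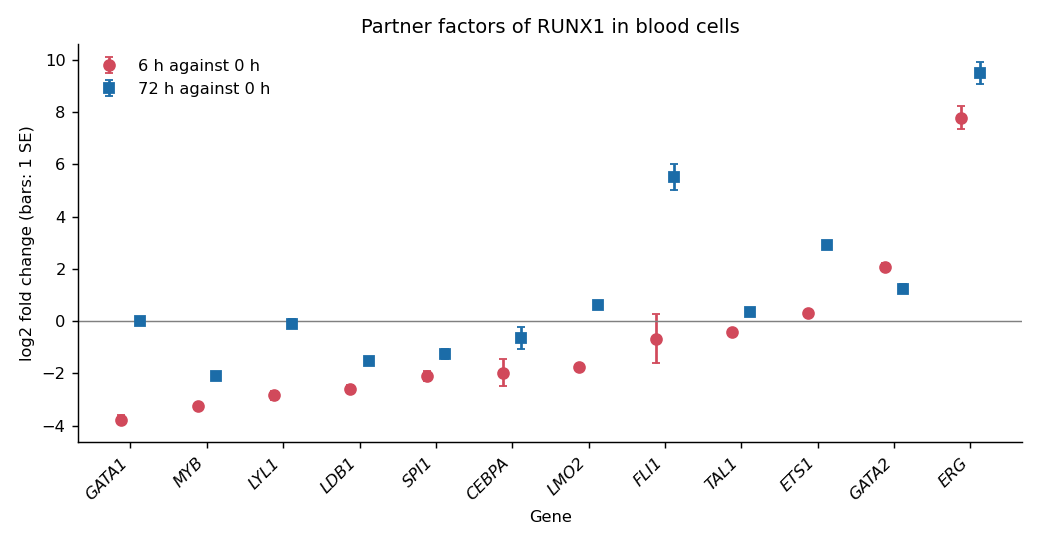
Fitted log2 fold change against 0 h at 6 h (circles) and 72 h (squares) for 12 partner factors of RUNX1, with bars of 1 SE, ordered by the 6 h value. GATA1, LYL1 and LMO2 are below 0 after 6 h and near or above 0 after 72 h, and the ERG values rest on 2 reads at 0 h.

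Of 30 cofactors and modifiers of RUNX proteins, 28 were tested, since RUNX1T1 and TLE1 held at most 10 reads in any library. At 6 h 12 rose, 8 fell and 8 were not called (median log2 fold change -0.033), where 27.8% of all genes were higher and 29.4% lower. At 72 h 9 rose, 5 fell and 14 were not called (median 0.128), where 31.7% of all genes were higher and 26.9% lower. The shares that fell at 6 h and rose at 72 h thus lay near those of all genes. CBFA2T3, a corepressor of the ETO family, had the largest change at 6 h, from 106 and 141 CPM at 0 h to 12.8 and 13.9 CPM (log2 -3.21, SE 0.147, edgeR adjusted p = 4.63e-10). HIPK2, a kinase that phosphorylates RUNX1, had the largest at 72 h, from 104 and 118 CPM to 549 and 564 CPM (log2 2.32, SE 0.0971, edgeR adjusted p = 1.49e-10). CDK6, a cell cycle kinase that binds RUNX1 and the member with the highest mean level, was at 370 and 274 CPM at 0 h and 257 and 208 CPM after 72 h (log2 -0.47, SE 0.134, edgeR adjusted p = 0.00846).

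Of 15 genes reported as activated by RUNX1 in megakaryocytes, 12 were tested. PF4 and F13A1, which were not, held at most 2 reads in any library. At 6 h 7 fell, 3 rose and 2 were not called (median log2 fold change -0.486), where 29.4% of all genes were lower and 27.8% higher. At 72 h 5 rose, 3 fell and 4 were not called (median 0.379, the same with ALOX12 at its bound), where 31.7% of all genes were higher and 26.9% lower. NFE2, a factor of platelet release, fell from 78.9 and 99.1 CPM to 1.71 and 2.02 CPM after 6 h (log2 -5.57, SE 0.182, edgeR adjusted p = 1.84e-11) and was at 50.5 and 56 CPM after 72 h. ALOX12, the platelet 12-lipoxygenase, went from 4.63 and 4.8 CPM at 0 h to 0 reads in both 72 h libraries, at least 50.3-fold lower against a floor of 3 reads per library. BLOC1S6, a dense granule gene and the member with the highest mean level, was at 340 and 272 CPM at 0 h and 386 and 409 CPM after 6 h (log2 0.38, SE 0.149, edgeR adjusted p = 0.0436).

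Of 3 genes reported as repressed by RUNX1 in megakaryocytes, 2 fell at 6 h and 1 was not called, and at 72 h 2 fell and 1 rose, where 29.4% and 26.9% of all genes were lower at these times. KLF1, the erythroid activator, had the largest change at both times, from 43.8 and 61.4 CPM at 0 h to 1.37 and 1.38 CPM after 6 h and 2.9 and 2.84 CPM after 72 h (log2 -4.19, SE 0.18, edgeR adjusted p = 1.96e-10). MYH10, a nonmuscle myosin that is normally silenced as megakaryocytes mature, was at 147 and 153 CPM at 0 h against 130 and 128 CPM after 72 h (log2 -0.22, SE 0.0855, edgeR adjusted p = 0.0425). The megakaryocyte and erythroid marker sums given above moved over the same hours, and their part in these lists was not tested.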

How the data were processed

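RNA of 16 K562 libraries at 8 times of PMA was measured by sequencing of total RNA depleted of ribosomal RNA, per the labels' protocols. For each library the deposited file holds 177456 transcripts with an estimated count of reads (not normalized, need not be whole) and a TPM value, per the file headers. The submitters' processing notes name Trim Galore 0.4.3, Salmon, HISAT2 2.1.0, SAMtools 1.9 and the builds hg19 and hg38. The deposited tables have the columns of Salmon output, and the build behind them is not given in the sources used here.

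The transcripts were matched to GENCODE 29 (GRCh38) without version numbers (94.1%), and unmatched ones (3.01 to 3.75% of reads) were left out. Estimated counts were summed per gene, per promoter group and kept per transcript, then rounded. The tests used edgeR 4.0.16 in R 4.3.3 (TMM factors 0.854 to 1.139, filterByExpr, prior count 0.125, quasi-likelihood F-test, all 8 time points in 1 fit), with limma 3.58.1 and DESeq2 1.42.0 as alternatives and Benjamini-Hochberg adjustment over all features of a contrast. Each SE was taken from the unshrunken log2 fold change and its F statistic. With 2 libraries against 2 an exact permutation test cannot go below p = 0.333, so a single gene's p depends on the spread shared across genes. The scripts were tested on simulated data.

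The members and lists were chosen with earlier results of these data known. From each list the text names the member with the largest change at 6 h, that at 72 h and the one with the highest mean level. GATA1 was added after its values were seen. A result that this rule names is not reported here. Alternatives were other scalings, filters, tests, GC correction, a replicate block and leaving out each library.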

Additional observations from a re-analysis of the deposited data

How the results depend on the processing

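Beside the counts of genes called, 74 results were recomputed under each alternative that applied. Of 838 such values 782 kept their direction and side of the threshold, 50 lost the call, 5 gained one and 1 reversed. A change of sign between values near 0 that were not called either way was not counted. The main fit did not pair the libraries by replicate number. Deviations of libraries with the same number correlated at r = -0.296 to 0.598 over 28 pairs of time points. Of these pairs 24 lay over 0.1, so libraries of the same number tended to deviate alike. The cause of this likeness was not tested. With the replicate block in the fit no call changed in 119 of 119 values.

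Scaled to total counts, RUNX1 (6 h) was -0.31 on the log2 scale (adjusted p = 0.00188), RUNX3 at 48 and 72 h was 1.07 and 1.11, and RUNX1 P2 (48 h) was -0.45 (called). Under that scaling the median of all genes moved to -0.116 (1.5 h), -0.276 (3 h), -0.353 (6 h), -0.259 (24 h), -0.185 (48 h) and -0.189 (72 h). Length-scaled counts from TPM gave RUNX1 (1.5 h) -0.58 (called) and RUNX3 (48 h) 1.25 (adjusted p = 0.0754). DESeq2 gave RUNX3 1.28 (48 h) and 1.33 (72 h), neither called. With 5′ ends joined within 100 bases the adjusted p of RUNX2 promoter use was 0.45 (3 h), 0.149 (6 h), 0.339 (48 h) and 0.245 (72 h), and RUNX1 P2 (72 h) was -0.26 (adjusted p = 0.0529). RUNX2 promoter use at 24 h was called with at least 10 counts in every library (adjusted p = 0.0297) and by voom (0.0484). Without RUNX1-216, RUNX1 P1 was -0.96 (48 h) and -0.68 (72 h). The cause of these changes was not tested.

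Leaving out 1 library at a time gave CBFB at 1.5 h 0.11 to 0.46, RUNX3 0.80 to 1.85 (48 h) and 0.84 to 1.89 (72 h), RUNX1 P1 -2.43 to -1.27 (6 h), -2.65 to -1.69 (24 h), -1.99 to -1.31 (48 h) and -1.82 to -1.05 (72 h), RUNX1 P2 -0.39 to -0.23 (24 h) and -0.34 to -0.23 (72 h), and RUNX2 P1 2.00 to 2.77 (24 h), 1.74 to 2.49 (48 h) and 1.81 to 2.57 (72 h). The adjusted p of RUNX1 promoter use ran from 0.0157 to 0.16 (1.5 h), 0.000239 to 0.0955 (3 h) and 0.000163 to 0.0768 (72 h). That of RUNX2 ran from 0.0513 to 0.303 (3 h), 0.0166 to 0.139 (6 h), 0.0292 to 0.19 (48 h) and 0.0229 to 0.159 (72 h). Of 280 values of the main transcripts without 1 library, added after the data had been seen, 238 kept their side of the threshold, 33 lost the call and 9 gained one. A lone library was assumed to vary like the other groups.

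At 0.5 h 30 genes were called, against 1538 with no filter on low counts, 59 with the GC trend removed, 74 with the block and GC trend removed, 12 from both time points alone, 121 by DESeq2 and 3585 without 0 h replicate 1. At 1.5 h 3003 were called, against 1098 from both time points alone and 1006 to 5008 without 1 library. At 3 h 7370 were called, against 4823 from both time points alone.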
